A study of Mus musculus with 6 samples.

Results

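The Reg family genes encode small secreted proteins with a C-type lectin fold, first described in regenerating pancreatic islets. The 7 mouse members measured here, Reg1, Reg2, Reg3a, Reg3b, Reg3d, Reg3g and Reg4, were listed by gene symbol in the array's annotation. The rule used no measured value, but the family was proposed with earlier results of these data known. They were read by 8 of the 34945 probe sets that name a single gene, and they stand for 7 of the 18193 genes tested. Reg3b had 2 probe sets and each of the others had 1. The brightest probe set of a gene, by its average on all 6 arrays, gave its main value.

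The arrays measured total RNA of pancreatic islets isolated from males of the outbred mouse strain CD1 at 8 weeks of age. After overnight culture the islets received vehicle, which was 0.1% ethanol, in 3 samples, or 200 uM CMPF in 3 samples, for 24 hours. CMPF is a breakdown product of furan fatty acids that circulates in blood, and the series title names metabolism as its subject. The labels do not say whether the samples of a group came from separate animals or preparations, so the error behind each p-value may be technical.

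In the healthy adult pancreas Reg proteins are best known as products of acinar cells, the enzyme-secreting cells of the exocrine tissue, and they are strongly induced there during pancreatitis. Reg3 genes are also made by intestinal epithelium, where cytokines that act through the transcription factor STAT3 induce them and where Reg3b and Reg3g act against bacteria. Reg1, also called pancreatic stone protein, and Reg2 have been linked to growth of beta cells. Isolated islets can carry attached acinar tissue, and in whole-islet RNA a change in the number of cells of a type and a change in RNA per cell cannot be told apart.

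Of these genes 6 lie next to each other, and the promoters of Reg1, Reg2, Reg3b and Reg3g are printed. Those of the cluster members Reg3a and Reg3d were searched but are not printed. The cluster members followed nearly 1 order over the arrays. Rnase1, a gene outside the family, and the mean of the acinar markers did so as well. Reg4, on another chromosome, was dim and barely varied. Whether position or promoter bears on the order was not tested. In the RefSeq gene table of build GRCm38.p6 the order along chromosome 6 is Reg3b, Reg3d, Reg3a, Reg2, Reg1 and Reg3g, with 1 annotated pseudogene, Gm52853, between Reg1 and Reg3g. All 7 members matched that table by Entrez ID. The promoter windows printed here run from 250 bases before to 50 bases after the start of each gene and come from RefSeq, build GRCm38.p6. Those of Reg1 at chr6:78425733-78426032 (plus strand), Reg2 at chr6:78404905-78405204 (plus strand), Reg3b at chr6:78370635-78370934 (plus strand) and Reg3g at chr6:78468825-78469124 (minus strand) are given 5′ to 3′. Capitals mark matches, on either strand, to the E-box CACCTG and the TC box TTTCCC, which are the kinds of element bound by the acinar factor complex PTF1, to the TATA box TATAAA, and to the STAT site TTCNNNGAA.
Reg1: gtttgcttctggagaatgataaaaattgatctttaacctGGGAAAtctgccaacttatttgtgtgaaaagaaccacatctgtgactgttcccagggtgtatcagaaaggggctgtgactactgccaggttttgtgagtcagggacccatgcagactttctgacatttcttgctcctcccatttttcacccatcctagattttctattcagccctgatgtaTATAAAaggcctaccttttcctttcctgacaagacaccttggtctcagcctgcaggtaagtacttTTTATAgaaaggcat
Reg2: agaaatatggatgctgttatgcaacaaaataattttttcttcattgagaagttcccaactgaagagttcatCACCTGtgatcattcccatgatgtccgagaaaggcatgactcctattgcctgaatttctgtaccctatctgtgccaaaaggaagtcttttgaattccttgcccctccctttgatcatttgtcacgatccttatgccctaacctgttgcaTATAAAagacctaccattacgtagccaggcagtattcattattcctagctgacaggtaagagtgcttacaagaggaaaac
Reg3b: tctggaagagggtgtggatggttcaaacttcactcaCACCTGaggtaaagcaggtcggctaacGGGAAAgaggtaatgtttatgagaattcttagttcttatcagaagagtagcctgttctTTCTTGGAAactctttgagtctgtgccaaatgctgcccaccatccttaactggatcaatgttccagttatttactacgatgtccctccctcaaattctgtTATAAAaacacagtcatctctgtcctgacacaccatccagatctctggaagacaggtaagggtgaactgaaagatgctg
Reg3g: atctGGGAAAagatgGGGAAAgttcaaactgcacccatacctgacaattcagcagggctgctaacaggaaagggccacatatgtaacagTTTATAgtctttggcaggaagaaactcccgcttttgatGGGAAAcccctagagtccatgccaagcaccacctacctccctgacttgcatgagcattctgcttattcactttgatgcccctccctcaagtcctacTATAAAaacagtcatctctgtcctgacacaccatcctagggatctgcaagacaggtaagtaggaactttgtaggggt

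Reg1 and Reg2 held TATAAA at the same distance, 30 bases before the start, and Reg3b and Reg3g held it at 29 and 27 bases before the start. The E-box was found in 5 of 7 members, in Reg2, Reg3a, Reg3b, Reg3d and Reg4, against 20.2% of all 32851 promoter windows. The TC box was found in 4 of 7, in Reg1, Reg3b, Reg3d and Reg3g, against 25.2% of windows. The TATA box was found in 4 of 7, the members printed above, and not in Reg3a, Reg3d or Reg4 (13.6% of windows). The STAT site was found in 2 of 7 (8.3% of windows). The STAT matches were TTCTTGGAA in Reg3b, 129 bases before the start, and TTCCCAGAA in Reg3d, which overlaps a TC box there. In global alignments Reg3b and Reg3g had 68.6% identical columns, the highest of any pair of members, and Reg1 and Reg2 had 56.4%. The other pairs lay between 45.7% and 53.6%, a range that includes all pairs with Reg4. A match is a stretch of letters in the window and was not tested as a site.

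No Reg gene differed between CMPF and vehicle by more than the spread between arrays, which lay mostly between replicate numbers. With the replicate number in the fit, the intervals of Reg1 (0.03 to 0.58) and Reg3g (0.07 to 0.89) lay above 0. Neither gene passed after adjustment for all genes tested (limma adjusted p = 0.979 for both). The clear feature of the family was instead a difference between replicate numbers: both arrays numbered 2 were highest and vehicle 3 was lowest for all 7 genes, by up to 12.0-fold among vehicle samples alone. All values below are log2 units of the authors' normalized signal, in which 1 unit is a doubling. Levels were not compared between different probe sets, whose probes differ in brightness.

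The values of each gene are given in the order vehicle 1, 2 and 3, then CMPF 1, 2 and 3. Reg1 read 13.06, 13.66 and 12.25 with vehicle and 13.28, 13.77 and 12.85 with CMPF. Reg2, its close relative and neighbour, read 13.31, 13.86 and 12.24, then 13.50, 13.85 and 13.05. In both genes the groups overlapped widely, and vehicle 3 lay apart from the other 5 arrays at the low end. The highest value of any probe set on any array was 14.73.

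In Reg3a, Reg3g and Reg3d the spread was larger. Reg3a, a less studied Reg3 lectin, read 8.61, 10.98 and 7.39 with vehicle, then 9.12, 10.81 and 8.59 with CMPF. Reg3g, which binds the bacterial wall, read 10.60, 12.65 and 9.60, then 11.10, 12.66 and 10.53. Reg3d, related to the hamster islet neogenesis protein INGAP, read 8.18, 9.90 and 7.09, then 8.36, 9.88 and 8.04. In each of these genes the arrays numbered 2 were above all others in both groups, so the groups overlapped.

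Reg3b, also known as pancreatitis-associated protein, read 13.17, 13.69 and 13.07, then 13.27, 13.62 and 13.31 in its main probe set. Its second probe set, of the type that can share probes with related transcripts, read 13.01, 13.89 and 12.49, then 13.27, 13.89 and 13.14. The probe sets had the same highest and lowest numbers but not the same spread. Reg4, best known from intestinal cells, read 3.49, 3.61 and 3.49, then 3.51, 3.61 and 3.54. It stayed below 4.53, the lower quartile of all gene means, and its arrays differed by only 0.13. The values carry no detection call, so this level could not be told from no expression.

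**Figure D1:**
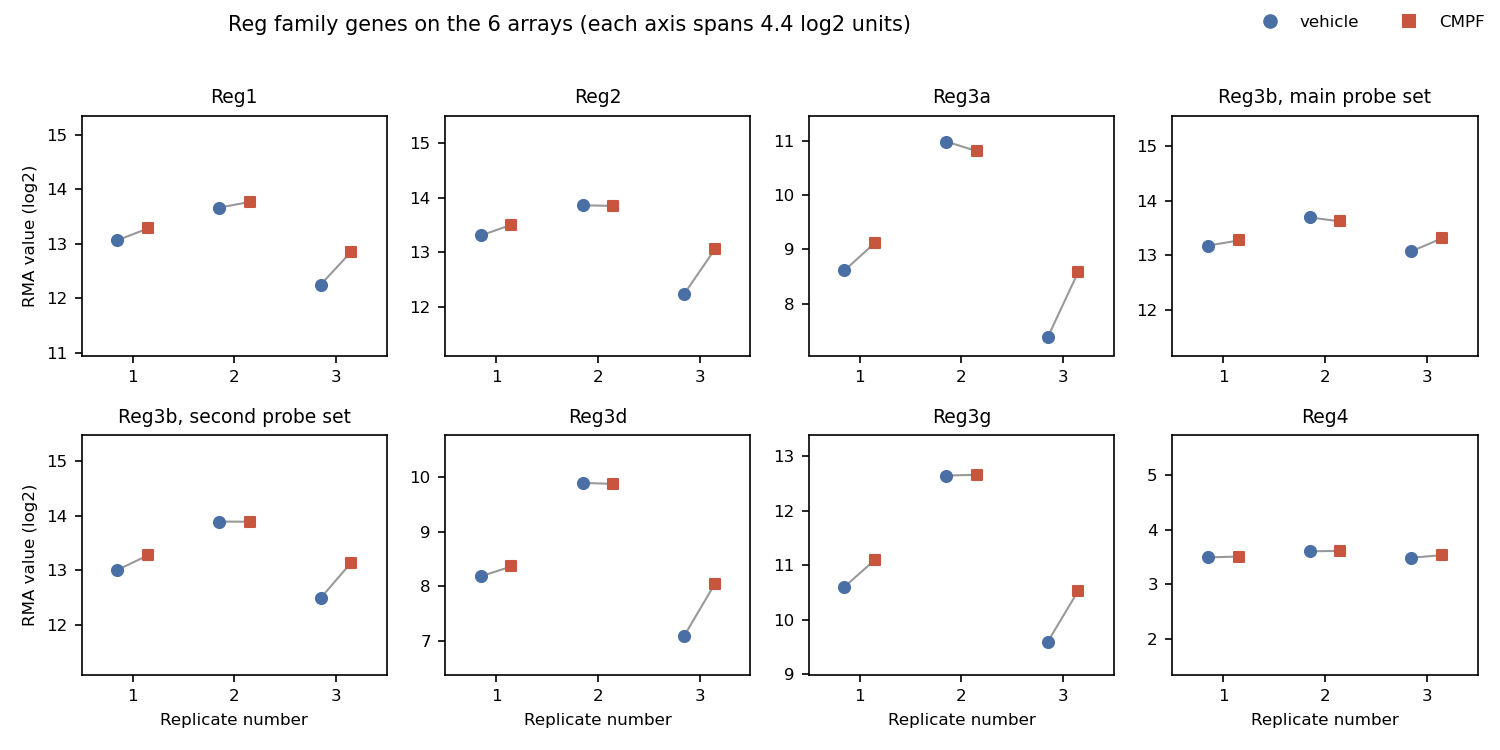
Normalized log2 value (vertical axes, each spanning the same 4.4 log2 units) of the 8 Reg probe sets by replicate number (horizontal axes), with vehicle as circles, CMPF as squares and a line joining arrays of the same number. The arrays numbered 2 lie highest in every panel, and the steepest lines are those of number 3, where Reg3a goes from 7.39 to 8.59.

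The order of the 6 arrays was nearly the same in every cluster gene. Reg2, Reg3a and Reg3d followed 1 order, with vehicle 2 highest and then CMPF 2, CMPF 1, vehicle 1, CMPF 3 and vehicle 3. Reg1 and Reg3g differed from it only in which array numbered 2 came first. In the main probe set of Reg3b CMPF 3 moved up to the place after the arrays numbered 2. In Reg4, at its small range, it did as well. In the second Reg3b probe set CMPF 1 (13.27) held that place, before CMPF 3 (13.14) and vehicle 1 (13.01). Vehicle 2 and CMPF 2 lay close and differed by at most 0.17 in any member. The arrays numbered 1 and those numbered 3 lay farther apart, by 0.51 and 1.20 in Reg3a.

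The range over the 6 arrays was 3.59 log2 units for Reg3a, a 12.0-fold span. It was 3.06 for Reg3g (8.36-fold), 2.81 for Reg3d (6.99-fold), 1.63 for Reg2 (3.09-fold) and 1.52 for Reg1 (2.86-fold). Reg3b spanned 0.62 (1.54-fold) in its main probe set but 1.40 in its second, so its span depended on the probe set. Reg4 spanned 0.13 (1.09-fold). By the main values, a range of at least 1 was reached by 5 of 7 members and by 4.30% of all genes. Only 5 genes had a wider range than Reg3a: the plasma protein genes Serpina1c, Hpx and Saa1, the chemokine gene Cxcl2, and Agmo. All of these but Saa1, a member of a list described further on, are named outside the rule for naming genes, after their values were seen. Within the vehicle group the range was 3.59 for Reg3a and within the CMPF group 2.22. For Reg1 the ranges were 1.41 and 0.91 and for Reg3g 3.05 and 2.13, and they were smaller with CMPF in all 7 genes. Whether the ranges differed beyond error was not tested.

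A test of the differences between replicate numbers, with treatment in the fit, showed how much of this spread the numbers carried. That limma F test was chosen after the values were seen, and it called 4 of 7 members, against 2.64% of all genes. Among the 782 genes with a range of at least 1 it called 355, so such calls were common in widely ranging genes. The 4 members called were Reg3g (adjusted p = 0.0121), Reg3d (adjusted p = 0.0176), Reg3a (adjusted p = 0.0181) and Reg1 (adjusted p = 0.0297). Reg2 (adjusted p = 0.0623), Reg3b (adjusted p = 0.110) and Reg4 (adjusted p = 0.660) did not pass. The replicate number took 92.6% of the sum of squares of Reg3g over the 6 arrays, and treatment took 4.58%. For Reg2, the member where the number took least, the shares were 80.9% and 9.03%. The median share of the number was 91.1% over the members, 59.7% over all genes and 87.0% over the 782 genes with a range of at least 1. The Reg genes were therefore close to other widely ranging genes in this share.

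CMPF was compared with vehicle to ask whether the metabolite moves Reg expression. Limma called 0 of 7 members, as it called 0% of all genes, and 0 of 7 had an unadjusted p under 0.05, against 1.13% of all genes. The groups did not overlap for 0 of 7 members, against 4.52% of all genes. The difference, CMPF minus vehicle, was positive in 7 of 7 members and in 50.7% of all genes, though for Reg4 it turned to -0.0019 with a second quantile normalization. The median was 0.33 over the members and 0.0018 over all genes. Members are not independent here, since 6 of them shared 1 pattern over the arrays.

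The vehicle samples averaged 8.99 ± 1.82 (SD, n = 3) for Reg3a and the CMPF samples 9.51 ± 1.16 (SD, n = 3). The difference was thus 0.51 (SE 0.927), or 1.42-fold. For Reg3g the vehicle samples averaged 10.95 ± 1.55 (SD, n = 3) and the CMPF samples 11.43 ± 1.10 (SD, n = 3), 0.48 apart (SE 0.818). Reg3d differed by 0.37 (SE 0.740), Reg2 by 0.33 (SE 0.400) and Reg1 by 0.31 (SE 0.369). For each of these 5 genes the difference was smaller than its standard error. Reg3b differed by 0.09 (SE 0.181) in the main probe set and by 0.30 (SE 0.350) in the second, and Reg4 by 0.02 (SE 0.084). The limma adjusted p was 0.99995 for each of the 7 genes. The 95% intervals were wide for the Reg3 genes of the middle range, from -1.66 to 2.69 for Reg3a and from -1.44 to 2.40 for Reg3g, so changes of several-fold in either direction lay within them. The interval was narrower for Reg1, from -0.56 to 1.17.

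Arrays of the same number deviated together over all genes, so the numbers were also used as a block. With the replicate block the standard errors fell to 0.114 for Reg1, 0.237 for Reg3a and 0.169 for Reg3g. The intervals became 0.03 to 0.58 for Reg1, 0.07 to 0.89 for Reg3g and -0.07 to 1.09 for Reg3a. An unadjusted p under 0.05 was reached by 2 of 7 members with the block, Reg3g and Reg1, against 3.80% of all genes. The limma test with the block called 0 of 7 members and 0% of all genes, with an adjusted p of 0.979 for both of these genes.

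**Figure D2:**
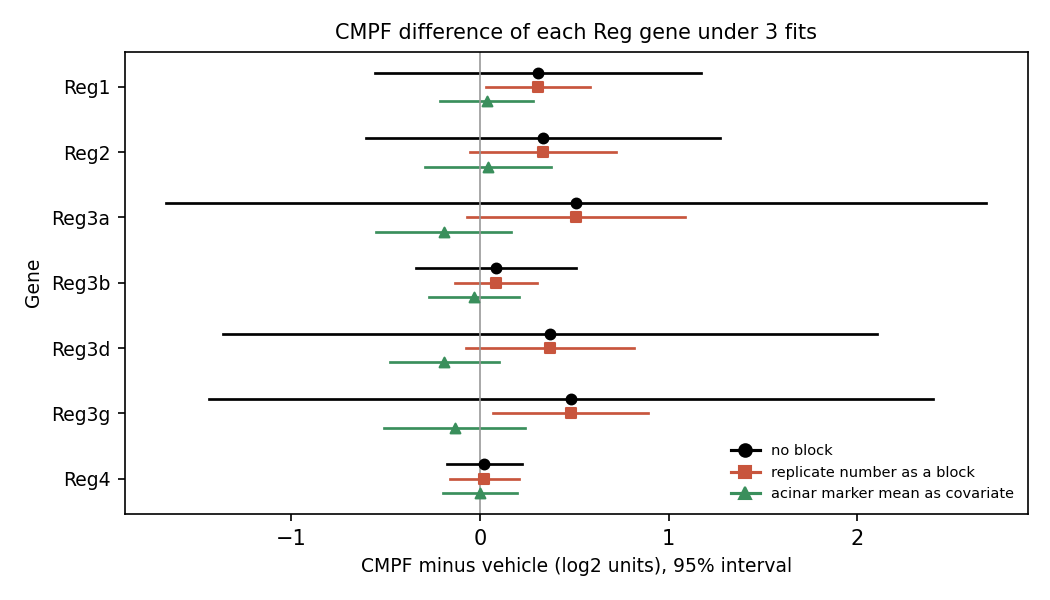
CMPF minus vehicle in log2 units (horizontal axis) for each Reg gene (vertical axis), with 95% intervals from the limma fit without the block (circles), with the replicate number as a block (squares) and with the acinar marker mean as a covariate (triangles). The interval of Reg3a shrinks from -1.66 to 2.69 without the block to -0.07 to 1.09 with it, and the estimate of Reg3a is -0.19 with the covariate.

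The difference was uneven over the pairs, a pair being the vehicle and CMPF array of 1 number. In pair 3 Reg3a was 1.20 higher with CMPF, Reg3d 0.95, Reg3g 0.94, Reg2 0.82 and Reg1 0.60. In pair 1 the same genes were higher by 0.51, 0.18, 0.50, 0.20 and 0.22. In pair 2 they were at -0.17, -0.02, 0.01, -0.01 and 0.10, so that pair stayed close to 0. The values of Reg3b were 0.09, -0.07 and 0.24 in pairs 1, 2 and 3, and its second probe set gave 0.27, -0.0022 and 0.65. CMPF was higher in all 3 pairs for 3 of 7 members, Reg1, Reg3g and Reg4, against 11.8% of all genes, though the pair differences of Reg4 were only 0.015, 0.0086 and 0.049. It was lower in all 3 pairs for 0 of 7 members, against 11.1% of all genes. In pair 3 the central 90% of all genes lay between -0.25 and 0.29, and 5 of 7 members lay above that interval.

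**Figure D3:**
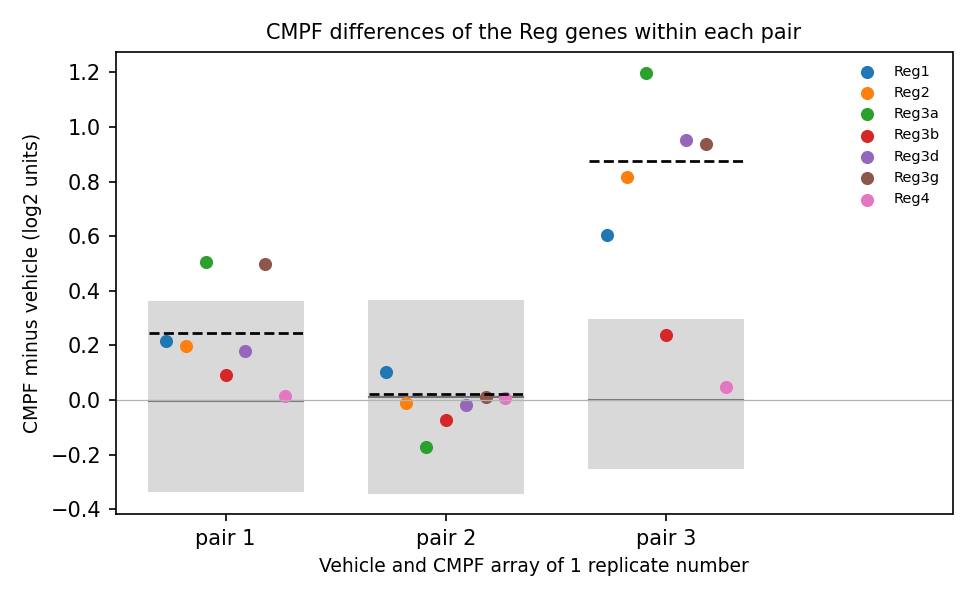
CMPF minus vehicle in log2 units (vertical axis) within each pair (horizontal axis) for the 7 Reg genes (points), beside the central 90% of all genes (grey boxes), their median (grey lines) and the acinar marker mean (dashed lines). In pair 3 the points of 5 genes lie between 0.60 and 1.20, and in pair 2 all 7 lie between -0.17 and 0.10.

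Single arrays set the sign of these differences. Without vehicle 3, the lowest array, 6 of 7 members turned negative, with -0.29 for Reg3a, -0.28 for Reg3d, -0.19 for Reg3g, -0.12 for Reg2, -0.06 for Reg1 and -0.04 for Reg3b. Without CMPF 2, 5 of 7 turned negative, and the values were -0.14 for Reg3a, -0.19 for Reg3d and -0.13 for Reg3g. Without vehicle 2, the highest vehicle array, the differences rose to 1.50 for Reg3a, 1.33 for Reg3g, 1.12 for Reg3d, 0.70 for Reg2 and 0.64 for Reg1. Leaving out 1 array breaks a pair, so these values mix treatment with the replicate number. Leaving out a whole pair kept all 7 members positive, with a median of 0.40 without pair 1, 0.51 without pair 2 and 0.09 without pair 3. The smallest adjusted p of a member was 0.978 or more in each of these fits.

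Acinar markers, digestive enzymes and related secretory genes that define the exocrine cell, moved with the Reg genes. Of 34 listed markers 27 were measured, and none had a mean below the lower quartile of all genes. Their mean log2 level ran from 9.20 to 11.21 on the vehicle arrays and from 10.08 to 11.23 on the CMPF arrays, highest on the arrays numbered 2 and lowest on vehicle 3. CMPF minus vehicle was positive for 26 of 27 markers, against 50.7% of all genes. CMPF was higher in all 3 pairs for 18 of 27, against 11.8% of all genes, and limma called 0 of 27. With the replicate block limma gave 14 of 27 an unadjusted p under 0.05, against 3.80% of all genes, and called 0. The median difference was 0.43, and the mean of the list differed by 0.25, 0.02 and 0.88 in pairs 1, 2 and 3. Cela3b, an elastase, differed by 0.31 (SE 0.275) and Ctrb1, a chymotrypsinogen, by 0.29 (SE 0.244), the markers with the highest mean. Without vehicle 3 these differences were 0.05 and 0.07, and without vehicle 2 they were 0.61 and 0.49.

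Set against that mean within a pair, Reg2 differed by -0.05, -0.04 and -0.06 more than the acinar markers, and Reg3d by -0.07, -0.04 and 0.07. Reg1 was at -0.03, 0.08 and -0.27 and Reg3g at 0.25, -0.01 and 0.06. Reg3a was at 0.26, -0.20 and 0.32. Reg3b in its main probe set, at -0.15, -0.10 and -0.64, was below the acinar mean in each pair. So was Reg4, at -0.23, -0.01 and -0.83, whose level could not be told from no expression. Both were farther below it than the other members in pairs 1 and 3. The second Reg3b probe set differed by 0.27, -0.0022 and 0.65, beside 0.25, 0.02 and 0.88 for the acinar mean. When the acinar mean entered the fit as a covariate, the CMPF difference was 0.04 (SE 0.103) for Reg1 and 0.04 (SE 0.139) for Reg2. It was negative for the other 5, at -0.19 (SE 0.149) for Reg3a, -0.19 (SE 0.121) for Reg3d, -0.13 (SE 0.156) for Reg3g, -0.03 (SE 0.099) for Reg3b and -0.00075 (SE 0.082) for Reg4. None was called (limma adjusted p = 0.99972 for each). The acinar mean separates the replicate numbers too, so this covariate and the pairing share information.

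**Figure D4:**
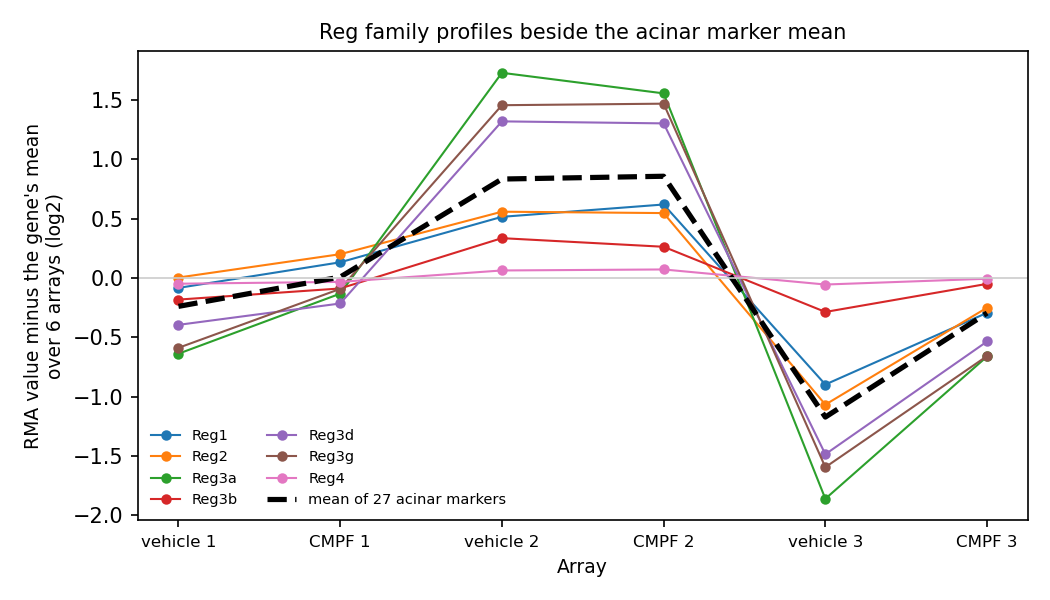
Normalized log2 value minus the gene's own mean over 6 arrays (vertical axis) on each array (horizontal axis) for the 7 Reg genes (thin lines) and the mean of 27 acinar markers (dashed line). 6 of the lines rise and fall with the acinar mean, the Reg3a, Reg3g and Reg3d lines with a wider swing, and the Reg4 line stays within 0.13 from lowest to highest.

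Outside the family, the genes whose profiles came closest to a Reg gene were sought by the root mean square difference between profiles centred on their own mean over the 6 arrays. For Reg1 they were the trypsinogen Prss2 (0.102), the zymogen granule gene Sycn (0.107) and Ptgr1 (0.113). For Reg2 they were Sycn (0.0749), 2210010C04Rik (0.0980) and the carboxypeptidase Cpa1 (0.105). Reg3d was closest to the ribonuclease Rnase1 (0.0570), then Homer2 (0.0984) and Pdia2 (0.111). Reg3g was closest to Rnase1 (0.115), the secreted scavenger receptor Dmbt1 (0.123) and the cholecystokinin receptor Cckar (0.128). For Reg3a the closest outside the family were Dmbt1 (0.191), Cckar (0.203) and Hsd17b13 (0.230). Of these 15 matches 8 were members of the acinar list, but Sycn, Rnase1 and Cckar each recur among the 8. Dmbt1, which is not on the list, recurs as well. The Reg genes themselves were left out of that search. Within the family Reg1 and Reg2 differed by 0.0912, Reg3d and Reg3g by 0.145, and Reg3a and Reg3g by 0.162. Reg2 was thus nearer to Reg1 than any gene outside the family, and Reg3g nearer to Reg3a. Reg2, Reg3d and Reg3g went the other way, and Reg3b and Reg4, with ranges under 1 in their main values, were not searched. Sycn was nearer to Reg2 than Reg1 was, and Rnase1 was nearer to Reg3d and to Reg3g than any member. Reg1 and Reg3a, with their unlike spans, differed by 0.795.

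Cytokines that act through STAT3 induce Reg3 genes in gut and pancreas, so the genes of that route were set beside the family. Of the 16 measured genes for the inducing cytokines, their receptors and kinases limma called 0, and the median difference was -0.02. CMPF was lower in all 3 pairs for 3 of 16 and higher in all 3 for 0, against 11.1% and 11.8% of all genes. Il6st, the shared receptor chain gp130, read 9.29, 9.18 and 9.19 with vehicle and 8.99, 9.02 and 9.09 with CMPF, a difference of -0.19 (SE 0.084) with no overlap between the groups. Its sign depended on the probe set, with 0.03 for the mean of its probe sets. Lifr, the receptor of the cytokine LIF, differed by -0.20 (SE 0.134), and by 0.04 for its probe set mean. Il6ra differed by -0.15 (SE 0.133), and the cytokine gene Osm by 0.20 (SE 0.116).

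Limma also called 0 of 18 STAT3 target genes, whose median difference was -0.04. In all 3 pairs 3 were lower and 1 higher, against 11.1% and 11.8% of all genes. The acute-phase genes Saa1, Saa2 and Saa3 were the 3 lower ones. Saa1 read 7.20, 3.89 and 6.19 with vehicle and 4.06, 3.51 and 4.69 with CMPF, a difference of -1.67 (SE 0.772). Saa2 differed by -0.81 (SE 0.350) and Saa3 by -0.30 (SE 0.251). With 1 array left out the difference ran from -2.61 (without vehicle 2) to -0.95 (without vehicle 1) for Saa1, and for Saa2 from -1.19 to -0.48 without the same arrays. For Saa3 it ran from -0.51 (without CMPF 1) to -0.06 (without vehicle 1). Myc, a growth transcription factor, differed by 0.23 (SE 0.119). The arrays numbered 2, where the Reg genes were highest, held the lowest Saa1 and Saa2 values of each group. Saa3 was lowest on the arrays numbered 3, by little. It read 6.86 on vehicle 3 and 6.91 on vehicle 2, and 6.61 on CMPF 3 and 6.62 on CMPF 2. Of the proposed binding partners of Reg proteins limma called 0 of 3. Extl3 differed by 0.05 (SE 0.121), Egfr by 0.0066 (SE 0.101) and Cd44 by -0.31 (SE 0.214).

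The array medians lay between 5.08 and 5.15. The tissue label was set against islet markers. The means of the 9 measured beta cell markers ran from 11.19 to 11.80, those of the 6 alpha, delta and PP cell markers from 11.76 to 11.87, and no marker of either list had a mean below the lower quartile of all genes. Goblet cell markers, which accompany Reg4 in the intestine, had a mean between 5.22 and 5.43. Of these 8 markers 3 had a mean below that quartile, and the list shares a gene with the acinar list. Macrophage, stellate and endothelial marker means ran from 6.37 to 6.58, 7.96 to 9.05 and 5.65 to 6.30. Of these lists, of 12 markers each, 2, 0 and 2 markers were below the quartile. The part of these cell types in the Reg values was not tested.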

How the data were processed

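The deposited values are log2 units of RMA signal, which Affymetrix Expression Console 1.1 computed according to the submitters' processing notes. RMA background-corrects, equalises the distributions of the arrays and summarises each probe set. Its settings and a genome build were not given in the sources used here. From 45101 probe sets, the 64 control probe sets and those naming several genes (932) or none (9160) were left out. All 6 value columns were used.

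CMPF was compared with vehicle with limma 3.58.1 in R 4.3.3 (lmFit, eBayes, two-sided, Benjamini-Hochberg over 18193 genes, threshold 0.05), with no filter. The second Reg3b probe set was fitted among all 34945 single-gene probe sets. The arrays' number limits the precision.

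The labels state no pairing, but equal replicate numbers behaved as pairs in the data: deviations from group means correlated at 0.488 to 0.638 for equal numbers and at -0.555 to 0.0885 otherwise. No arrays were identical.

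The members and lists were chosen with earlier results of these data known. Text names the members, up to 4 genes of smallest p per pathway list, the 2 acinar markers of highest mean, and, for members with a range of at least 1, the 3 most alike genes outside the family. Exceptions are stated. Promoters were aligned with Biopython 1.88. The fit was checked on simulated data. Alternatives changed the block, covariate, normalization, weights, probe sets, filters, variance prior and arrays used.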

Additional observations from a re-analysis of the deposited data

How the results depend on the processing

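The call of 0 genes, and of 0 Reg genes, held under each alternative run: the replicate block, the acinar covariate, median centring, a second quantile normalization, array weights, the mean of probe sets, both filters on dim genes, another variance prior, and each array or pair left out. The replicate block left each difference as it was (0.31 for Reg1) and changed no call. Reg4 fell below both filters and has no value there.

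Signs did change. With the acinar covariate they reversed for Reg3a (-0.19), Reg3b (-0.033), Reg3d (-0.19), Reg3g (-0.13), Reg4 (-0.00075), Egfr (-0.026), Dmbt1 (-0.25), Cckar (-0.29), Hsd17b13 (-0.26), Rnase1 (-0.12), Homer2 (-0.25) and Pdia2 (-0.051). A second quantile normalization reversed Reg4 (-0.0019) and array weights Egfr (-0.0045). Probe set means reversed Il6st (0.033), Lifr (0.036), Extl3 (-0.018), Egfr (-0.051) and Cd55 (0.013). Leaving out pair 2 reversed Extl3 (-0.037), Egfr (-0.038) and Mmp7 (0.26), and leaving out pair 3 reversed Egfr (-0.050) and 2210010C04Rik (-0.031). The cause was not tested.

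With 1 array left out, the differences ran from -0.063 to 0.64 for Reg1, -0.12 to 0.70 for Reg2, -0.29 to 1.50 for Reg3a, -0.035 to 0.28 for Reg3b, -0.28 to 1.12 for Reg3d, -0.19 to 1.33 for Reg3g and -0.0063 to 0.063 for Reg4. They ran from -0.16 to 0.73 for 2210010C04Rik, -0.37 to 1.17 for Cckar, -0.010 to 0.39 for Clu, -0.036 to 0.84 for Cpa1, -0.34 to 1.22 for Dmbt1, -0.055 to 0.058 for Egfr, -0.067 to 0.14 for Extl3, -0.34 to 0.96 for Homer2, -0.39 to 1.31 for Hsd17b13, -0.52 to 0.13 for Mmp7, -0.17 to 1.31 for Pdia2, -0.033 to 0.58 for Prss2 and -0.22 to 1.22 for Rnase1. Without a change of sign they ran from -0.53 to -0.11 for Cd44, -0.30 to -0.0052 for Cd55, -0.23 to -0.028 for Il6ra, -0.22 to -0.16 for Il6st, -0.29 to -0.081 for Lifr, 0.13 to 0.30 for Myc, 0.11 to 0.31 for Osm, 0.041 to 0.66 for Ptgr1 and 0.044 to 0.83 for Sycn. Reg4 read below the lower quartile of all genes.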

Other observations

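Duct markers, from the other exocrine cell type, also differed between arrays. Of the 16 measured of 18 listed, limma called 0 with CMPF, and the median difference was 0.03. In all 3 pairs 5 were higher and 2 lower, against 11.8% and 11.1% of all genes. Their mean ran from 8.31 to 9.03 on the vehicle arrays and was highest on vehicle 2. The test of replicate numbers called 9 of 16 duct markers and 16 of 27 acinar markers, against 2.64% of all genes. It called 355 of the 782 genes with a range of at least 1.

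Genes that acinar cells raise under stress, a state in which Reg genes rise as well, gave a mixed picture. Limma called 0 of 12, and the median difference was 0.04. In all 3 pairs 4 were higher and 2 lower, against 11.8% and 11.1% of all genes. Clu, a secreted chaperone, read 13.80, 14.19 and 13.39 with vehicle and 13.92, 14.26 and 13.77 with CMPF, a difference of 0.19 (SE 0.217). Its arrays numbered 2 were highest and vehicle 3 was lowest, as for the Reg genes. Onecut2, a transcription factor of dim signal here, read 5.11, 5.20 and 4.37, then 3.82, 4.38 and 3.98, a difference of -0.83 (SE 0.242; limma adjusted p = 0.99995). Mmp7, a matrix protease, differed by -0.29 (SE 0.341), and Cd55, a complement regulator, by -0.14 (SE 0.173).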
